A study of Caenorhabditis elegans with 2 samples.

Results

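The 5 actin genes of Caenorhabditis elegans, act-1, act-2, act-3, act-4 and act-5, were examined for regions recovered with NHR-47, a nuclear hormone receptor, a class of transcription factors that is very large in this nematode. They are 5 of 19973 protein-coding genes in the Ensembl annotation of the WBcel235 (ce11) assembly. The genes were listed by name and selected on the signal values and summits of these same lists, so their levels are given as a description with no test. Every summit from 2 kb upstream of the annotated 5′ end to the 3′ end was taken, in 4 region lists. Chromatin immunoprecipitation and sequencing (ChIP-seq) enriches the DNA that a protein of interest occupies, and a summit is the base at which the caller placed the highest signal of a region. There were 2 biological replicates of 1 group, whole hermaphrodite L1 larvae of strain OP481, collected 6 h after synchronization by starvation after bleaching. All worms carried unc-119(tm4063) III and the transgene wgIs481, which gives NHR-47 with a GFP-FLAG tag at its C terminus, and an anti-GFP antibody was used. The lists hold no read counts, so the depth behind each value is unknown. The signal comes from the tagged protein and from all cells of the larva together, and the lists do not show in which tissue a region was bound.

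Actin monomers assemble into the filaments that carry muscle contraction, cell shape and the core of microvilli. In C. elegans, act-1, act-2 and act-3 lie close together on chromosome V and act-4 on X, and these 4 genes supply much of the actin of muscle. The gene act-5, on chromosome III, encodes a divergent actin of the microvilli of the intestine and the excretory canal. Many worm transcripts are trans-spliced, so an annotated 5′ end can be a splice site that lies downstream of the start of transcription.

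Regions past the authors' threshold lay at 4 of the 5 actin genes and not at act-5. The gene act-4 had 2 of them, at its 5′ end and in its first intron, while act-1, act-2 and act-3 had 1 each, all upstream. Of all protein-coding genes, 24.2% had a thresholded summit in the same kind of window. The share was 21.5% among the 9213 genes whose windows were as long as those of the actin genes, from 3364 to 5793 bp. The promoter window, 500 bp before the 5′ end to 200 bp after it, held a thresholded summit at 3 of the 5, act-1, act-2 and act-4, beside 12.8% of protein-coding genes. In the pooled list all 5 had a region in the full window, beside 47.5%. By chromosome the share with a thresholded summit in the full window was 16.5% on V, 26.3% on X and 33.7% on III. Since act-1, act-2 and act-3 are neighbours, the 5 genes are not 5 independent places in the genome.

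The sequences at these summits are shown first, since they locate the regions and can be read against the other members. Each is the summit base with 50 bases to either side, from the RefSeq copy of the WBcel235 reference and on the strand of the gene. Capitals mark matches to TATAAA or GAGAGA on either strand. For act-4 the stretch of that length just before the 5′ end is given in place of that around the summit, which falls in the 5′ untranslated part of the first exon.
act-1, chrV:11080661-11080761, plus strand: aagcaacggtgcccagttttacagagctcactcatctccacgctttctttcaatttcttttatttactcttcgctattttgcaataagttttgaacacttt
act-2, chrV:11078514-11078614, minus strand: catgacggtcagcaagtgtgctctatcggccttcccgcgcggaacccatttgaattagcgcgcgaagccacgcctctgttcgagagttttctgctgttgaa
act-3, chrV:11076443-11076543, minus strand: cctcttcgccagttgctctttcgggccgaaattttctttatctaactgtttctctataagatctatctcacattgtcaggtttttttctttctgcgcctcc
act-4 before the 5′ end, chrX:4960520-4960620, plus strand: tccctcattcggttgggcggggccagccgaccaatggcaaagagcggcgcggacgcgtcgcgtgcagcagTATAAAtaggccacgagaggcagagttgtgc
act-4 first intron, chrX:4962442-4962542, plus strand: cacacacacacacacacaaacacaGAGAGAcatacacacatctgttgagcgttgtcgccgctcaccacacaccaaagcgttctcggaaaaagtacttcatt
act-5, strongest region below the threshold, chrIII:13606158-13606258, minus strand: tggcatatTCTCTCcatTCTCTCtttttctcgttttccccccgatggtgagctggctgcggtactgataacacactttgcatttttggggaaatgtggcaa

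The summit windows had little sequence in common. The longest run that any pair of the 6 summit-centred windows shared, on either strand, was between 6 and 8 bases. The GC content was 36.6% at act-1 and 41.6% at act-3, below the 45.5% median of all 5357 thresholded windows. It was 55.4% at act-2, 53.5% at the 5′ end of act-4 and 47.5% in the intron of act-4, above that median. The weaker cluster summits, at act-1 and act-3, were thus those of lower GC content.

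The summit-centred windows were searched on both strands for 6 short motifs, and counts over 5 windows are too few to set apart from the shares over all windows. AGGTCA, a core element of many nuclear receptors, was in 0 of the 5 thresholded actin windows and in 2.67% of all thresholded windows. GACGCA was in 0 of the 5 and in 14.6% of all. GAGAGA was in 1 of the 5, the act-4 intron, and in 25.1% of all. CANNTG, the E-box bound by basic helix-loop-helix factors, was in 3 of the 5, at act-2, act-3 and the act-4 intron, against 40.9% of all. TATAAA and the CArG box, the site of serum response factor, were each in 0 of the 5, with shares of 6.22% and 0.373% among all windows. The TATAAA printed for act-4 lay at bases 71 to 76 of its sequence, 54 bp from the summit and so just outside the summit-centred window. A stretch of that length before the 5′ end held TATAAA in 19.4% of protein-coding genes. Absence of these letters from a window says nothing of which factor binds there.

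The gene act-4 carried the strongest actin summit. It lay at X:4960647, in the 5′ untranslated part of the first exon and 26 bp downstream of the annotated 5′ end, within a region of 396 bp. Its signal, the caller's own score, was 323 in the pooled list and its rank 1154 of 30000. In replicate 1 the signal was 138, with rank 1151 and the summit 4 bp upstream of the 5′ end. In replicate 2 it was 188, with rank 1162 and the summit 25 bp downstream. The raw signal values are on a scale of their own in each list, so each replicate's signal was also divided by the median over the thresholded peaks found in both replicates. On that relative scale the summit stood at 2.07 in replicate 1 and 2.04 in replicate 2 (2.06 ± 0.0231, SD, n = 2). Both replicates thus placed it at about the same height, above the median peak.

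The other thresholded summit of act-4 lay at X:4962492, in the intron between the first and the second exon of the longer transcript. It was 1871 bp downstream of the gene's 5′ end and 383 bp upstream of the 5′ end of the shorter transcript. Its pooled signal was 231 and its pooled rank 1757. Replicate 1 gave 92.0 at rank 1933 and replicate 2 gave 148 at rank 1575, with relative signals of 1.38 and 1.60 (1.49 ± 0.159, SD, n = 2). Both values were above the median peak and below both values of the 5′ summit of the gene. Of all protein-coding genes, 4.7% had 2 or more thresholded summits in the window. Of the 32-base words in this region, 94.3% occurred once in the nuclear genome, beside 99.7% in the region at the 5′ end.

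The remaining regions in the act-4 window were weak. The pooled list had a region 977 bp upstream, with a signal of 20.6 at rank 21844. It had 2 more in coding exons, 2903 and 3145 bp downstream of the 5′ end, with signals of 36.8 at rank 11686 and 19.7 at rank 22797. In replicate 1 the weak regions were 1010 bp upstream (14.0, rank 17509), in the first intron 2031 bp downstream (17.1, rank 13536) and in a coding exon 2900 bp downstream (10.5, rank 24971). Replicate 2 had no summit upstream within 2 kb. Its weak summits lay in the first intron 227 and 2061 bp downstream (39.8 at rank 6325 and 9.67 at rank 27492) and in coding exons 2890 and 3089 bp downstream (27.2 at rank 9646 and 20.5 at rank 13284). A summit in the same coding exon, at 2890 to 2903 bp, was thus in all 3 of these lists, and below the threshold in each.

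**Figure D1:**
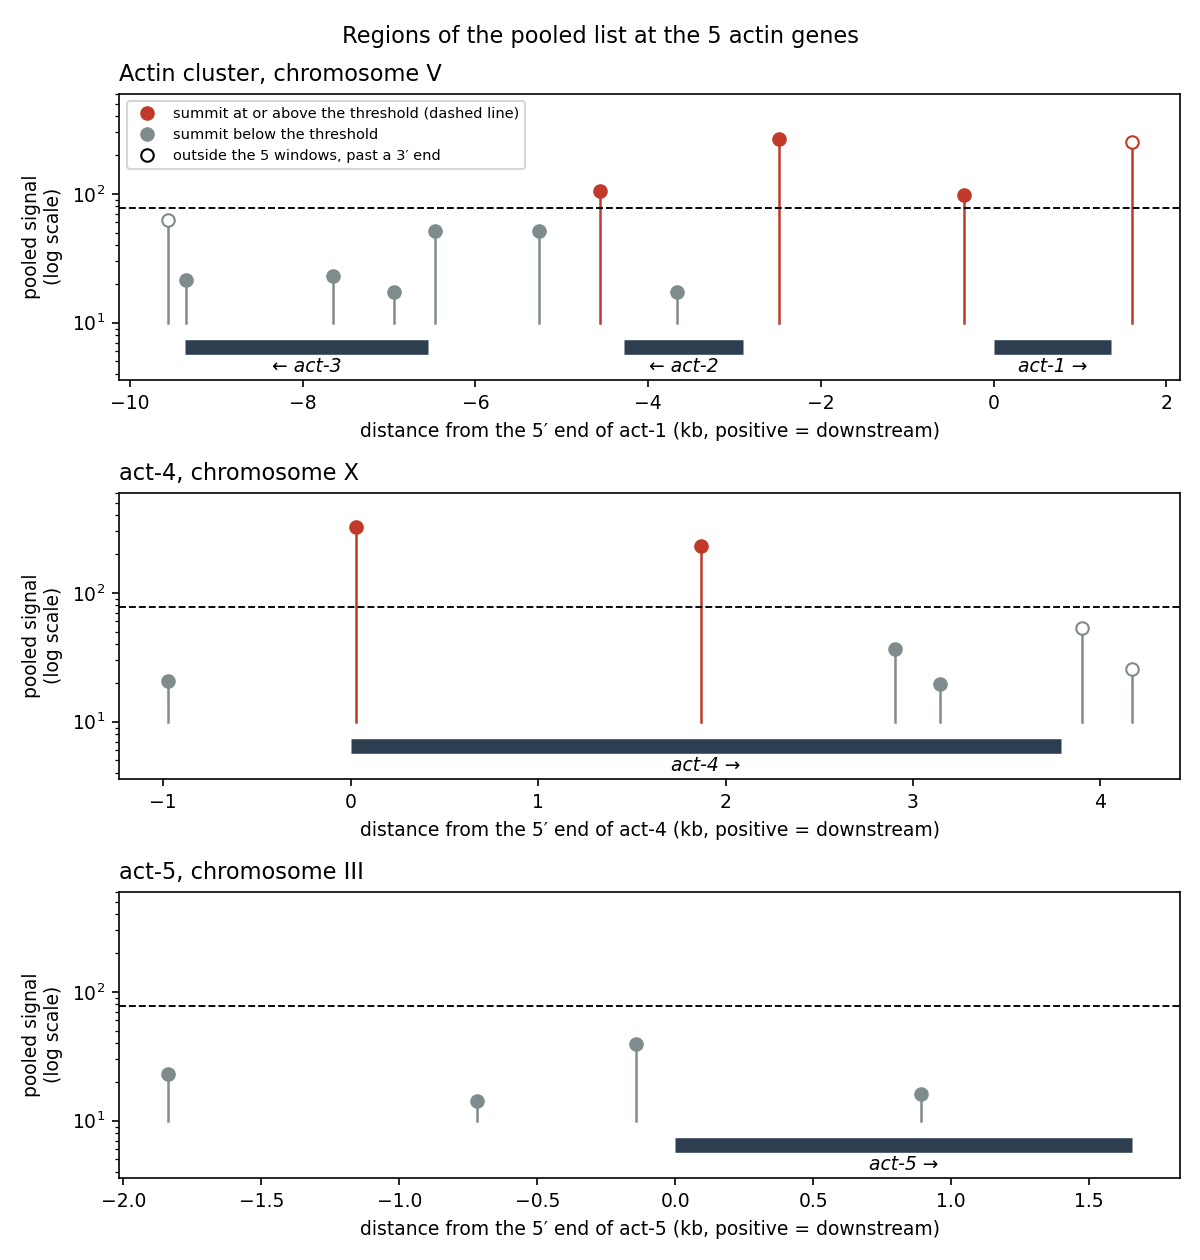
Signal of each region of the pooled list (log scale) against distance from the 5′ end of act-1 (cluster on chromosome V), act-4 and act-5, with dark bars for the genes and arrows for their direction. Red summits are at or above the lowest thresholded signal of 77.0 (dashed line), grey ones are below it, and open circles lie past a 3′ end and outside the 5 windows; act-5 has grey summits alone.

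The summit upstream of act-2 was the strongest in the windows of the 3 clustered genes. It lay at V:11078564, 410 bp upstream of the 5′ end, in a region of 213 bp. The summit base also lies within the annotated noncoding RNA genes T04C12.18 and T04C12.24, which are on opposite strands. Its pooled signal was 265 and its pooled rank 1492. Replicate 1 gave 75.2 at rank 2403, with the summit 382 bp upstream. Replicate 2 gave 182 at rank 1215, with the summit 416 bp upstream. The relative signals were 1.13 and 1.97 (1.55 ± 0.599, SD, n = 2), a log2 ratio of replicate 1 to replicate 2 of -0.81. Over the 5312 peaks found in both replicates the log2 ratio had an SD of 0.50, and 8.85% of them differed by at least as much as this summit. Both replicates had it above the median peak, but its height relative to the act-4 summits differed between them, lower than both in replicate 1 and close to the higher of them in replicate 2.

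The act-2 window held 1 other pooled region, in a coding exon 768 bp downstream of the 5′ end, with a signal of 17.2 at rank 25631. Neither replicate list had a region that overlapped it. Replicate 1 had a weak region 590 bp upstream (9.69, rank 27308), and replicate 2 had no other summit in the window. The windows of act-1 and act-2 overlap by 1103 bp of the 2897 bp between their 5′ ends, but no summit lay in the overlap.

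The act-1 summit was weaker. It lay at V:11080711, 341 bp upstream of the 5′ end, with a pooled signal of 97.1 and a pooled rank of 4259, and no other pooled summit lay in its window. It was the actin summit nearest above the threshold, at which the lowest signal was 77.0, and the nearest below, at act-3, had 51.8. Replicate 2 had a single summit as well, 344 bp upstream, with 64.0 at rank 3880 and a relative signal of 0.694. Replicate 1 instead had 2 overlapping regions, with summits 473 bp upstream (40.3, rank 4732) and 237 bp upstream (25.9, rank 7883). The region at 237 bp has the nearer summit and gives a relative signal of 0.388, for a mean of 0.541 ± 0.217 (SD, n = 2). With the stronger region of replicate 1, a choice made after the values were seen, the mean was 0.649 ± 0.0641. Under either choice the mean was below the median peak.

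For act-3 the call rested on a summit at the edge of the window. It lay at V:11076493, 1995 bp upstream of the 5′ end, 5 bp short of the limit, and 284 bp past the 3′ end of act-2, which is transcribed in the same direction. The annotated noncoding RNA gene T04C12.14 covers the summit. The pooled signal was 105 and the pooled rank 3925. Replicate 2 placed it 1997 bp upstream, with 71.4 at rank 3476. The matching region of replicate 1 (38.6, rank 4947) had its summit at V:11076546, outside the window of act-3 and 231 bp past the 3′ end of act-2. The relative signals were 0.579 and 0.775 (0.677 ± 0.139, SD, n = 2), both below the median peak. With a window that began 1 kb or 500 bp upstream, the count of actin genes with a thresholded summit was 3. Of all protein-coding genes, 19.9% had one with 1 kb and 17.2% with 500 bp. The count was also 3 when a summit counted only for the gene whose 5′ end was closest, here act-2. Under that rule 16.6% of protein-coding genes had a thresholded summit.

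Nearer to act-3 the pooled list had 5 regions below the threshold. The 2 strongest lay 86 bp upstream of the 5′ end, with a signal of 51.8 at rank 8063, and 1290 bp upstream, with 51.3 at rank 8140. Replicate 1 had both, 96 bp upstream with 32.8 at rank 5909 and 1282 bp upstream with 32.2 at rank 6024, which is just past the length of the thresholded list. Replicate 2 had them 168 bp upstream with 27.3 at rank 9591 and 1308 bp upstream with 19.9 at rank 13660. The relative signals of the summit 86 bp upstream were 0.491 in replicate 1 and 0.297 in replicate 2, and those of the summit 1290 bp upstream 0.483 and 0.216. These summits were therefore the higher in replicate 1, whereas the thresholded summits of act-1, act-2 and act-3 were the higher in replicate 2.

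The other act-3 regions were weaker still. A pooled summit in the first intron, 1096 bp downstream of the gene's 5′ end, was 138 bp upstream of the 5′ end of the shortest transcript (23.2, rank 19510). Replicate 1 had it 1012 bp downstream (10.2, rank 25991) and replicate 2 had it 1082 bp downstream (17.6, rank 15667). A further intron summit 388 bp downstream (17.4, rank 25434) was matched in replicate 1, 394 bp downstream (18.2, rank 12396), and by no region of replicate 2. The last pooled summit lay in the 3′ untranslated exon, 2800 bp downstream (21.5, rank 20942), and both matching replicate regions had their summits past the 3′ end. Replicate 2 alone had a summit 1018 bp upstream (12.5, rank 22030).

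No act-5 summit was in the thresholded list or among the first 5357 of any other list. The strongest of its 4 pooled regions lay 142 bp upstream of the 5′ end, at III:13606208, with a signal of 39.3 at rank 10890. Replicate 2 had it 168 bp upstream, with 25.3 at rank 10481. Replicate 1 had a summit 103 bp upstream, with 8.94 at rank 29576, near the end of its list, and another 100 bp downstream in the first coding exon, with 18.7 at rank 12017. The relative signals of the upstream summit were 0.134 and 0.274 (0.204 ± 0.0993, SD, n = 2), and both were below those of every thresholded actin summit. The summit lay in the window of the neighbouring gene shpk-1 too. The lists of 30000 regions hold background as well as peaks, so a weak region in them need not be bound. The authors' -log10 q-value of the upstream act-5 summit was 1.41 in the pooled list, 0.132 in replicate 1 and 1.79 in replicate 2.

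The other act-5 regions were near the bottom of the lists. Pooled summits lay 720 bp upstream (14.1, rank 29861), 1840 bp upstream (23.1, rank 19545) and in a coding exon 892 bp downstream (16.0, rank 27163). Replicate 1 had them 684 bp upstream (13.3, rank 18817), 1838 bp upstream (10.9, rank 23876) and 861 bp downstream (10.99, rank 23718). Of these 3, replicate 2 had only the farthest upstream, at 1803 bp (13.6, rank 20376). Of all protein-coding genes, 13.8% had 4 or more pooled regions in the window, as did act-3, act-4 and act-5. Among genes with windows as long as those of the actin genes, 10.6% did.

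**Figure D2:**
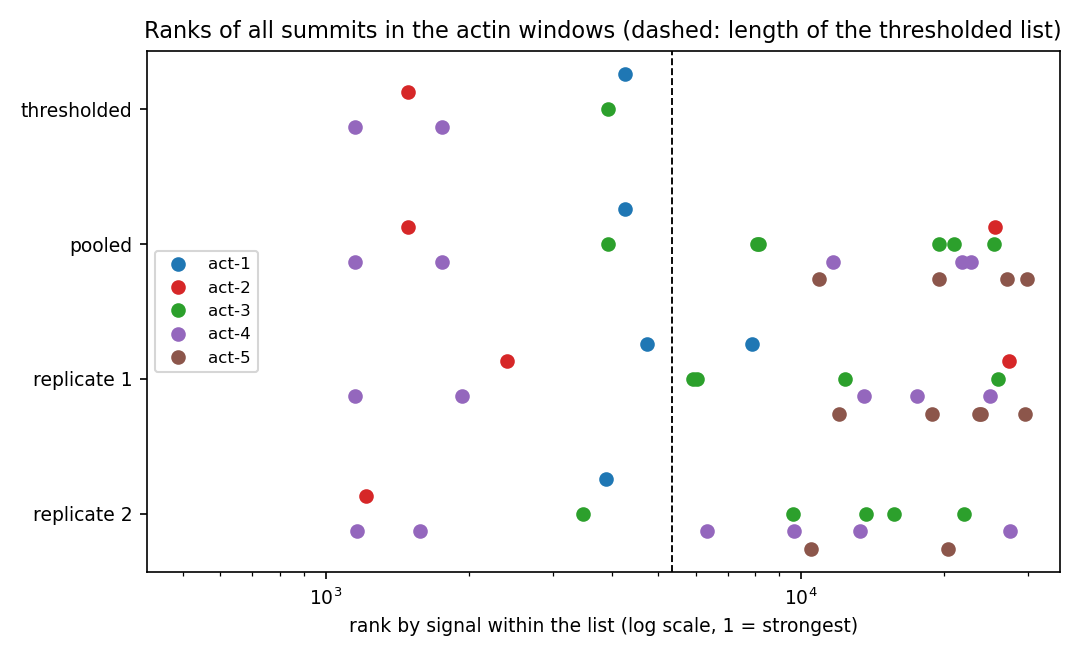
Rank by signal (log scale, 1 is the strongest) of every summit in the window of each actin gene, by list and coloured by gene; the dashed line is the length of the thresholded list, 5357. The act-2 and act-4 summits lead in every list, and act-5 stays right of the line throughout. The gene act-3 crosses the line in replicate 2 and not in replicate 1, where the matching summit lay outside its window.

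Over all windows there were 5 thresholded and 18 pooled summits, 18 in replicate 1 and 15 in replicate 2. Of the 18 pooled summits, 13 overlapped a region in both replicates by at least 1 bp. Among these 13, the act-4 summits 2903 and 3145 bp downstream overlapped the same region of replicate 1. Of the rest, 1 had no region in replicate 1 and none in replicate 2 either, and the other 4 had none in replicate 2 alone. Among the summits of each replicate list in the windows, 4 in replicate 1 and 5 in replicate 2 ranked within the first 5357. In the replicate 1 list, 24.5% of protein-coding genes had such a summit, and in the replicate 2 list 24.2%. By mean relative signal the 5′ summit of act-4 stood highest, but its lead over the act-2 summit was smaller than the SD at act-2. The act-2 summit and the act-4 intron summit did not differ beyond the spread between replicates. The summits of act-3 and act-1 were lower and likewise did not differ beyond it, and that of act-5 was the lowest.

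**Figure D3:**
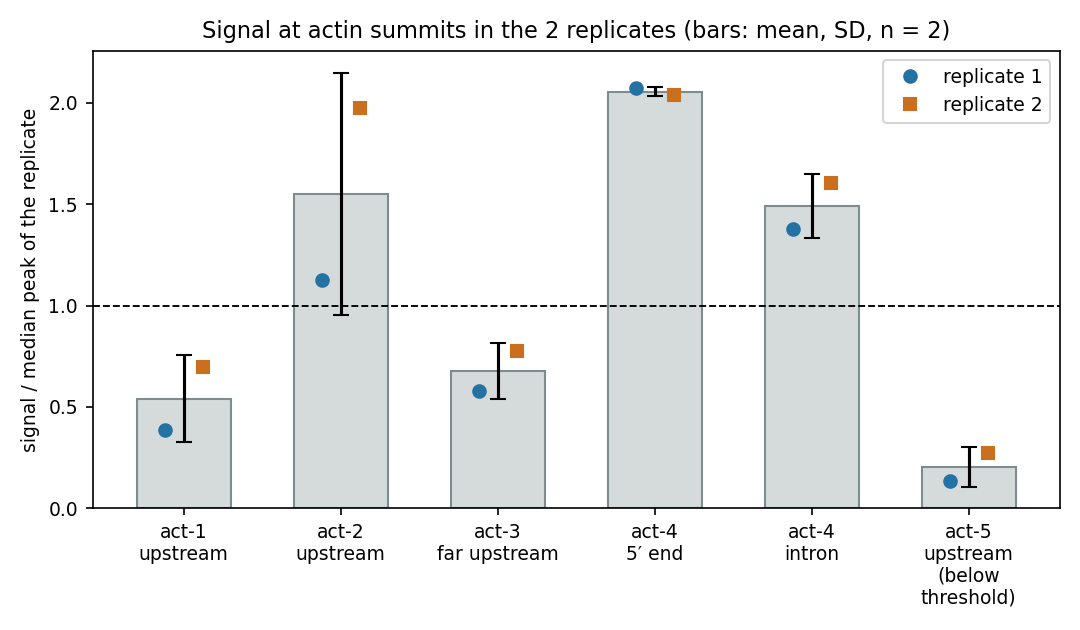
Signal divided by the median peak of each replicate (dashed line at 1) for the 5 thresholded actin summits and the strongest act-5 region, with a bar for the mean and an error bar for the SD of 2 replicates. Replicate 1 and replicate 2 nearly coincide at the 5′ end of act-4 (2.07 and 2.04) and lie apart at act-2 (1.13 and 1.97).

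Against other genes with a peak, the actin summits were of middling or low strength. The median gene with a thresholded summit had a strongest signal of 211. The strongest summit of act-4 was above that of 67.7% of such genes and that of act-2 above 60.1%, while act-3 was above 17.9% and act-1 above 13.6%. By rank of signal, the thresholded summits next to that of act-4 lay nearest to acy-1, an adenylyl cyclase gene (relative signal 1.99 ± 0.0305, SD, n = 2), and rpl-7, a ribosomal protein gene (2.05 ± 0.202). Those of act-2 were nearest to djr-1.2 and dpsm-1, those of act-3 to sos-1 and T28F12.1, and those of act-1 to rike-1 and mcp-1. This likeness is of rank in a single list and says nothing of shared function.

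Regions also lay just past the 3′ ends of the clustered actin genes, outside the windows, and were looked at after their values were seen. Within 500 bp past the 3′ end, 2 of the 5 actin genes, act-1 and act-2, had a thresholded summit, beside 4.36% of protein-coding genes. A pooled region lay there at 4 of the 5, all but act-5, beside 19.9% of protein-coding genes and 15.6% of those on V. The clustered genes share their neighbourhood, so these counts are not independent.

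The strongest of these summits, at V:11082649, was 234 bp past the 3′ end of act-1, in the noncoding RNA gene T04C12.29, with a pooled signal of 250.1 at rank 1605. Its relative signal was 1.65 in replicate 1 and 1.49 in replicate 2 (1.57 ± 0.110, SD, n = 2), above the summit upstream of act-1 in both replicates. The summit 284 bp past the 3′ end of act-2 is the one counted for act-3. Past the 3′ end of act-3 a pooled region below the threshold lay at 203 bp, with a signal of 62.5 at rank 6597. The gene act-4 had 2 pooled regions below the threshold, at 111 bp (53.3, rank 7850) and 374 bp (25.4, rank 17671), both with their summits inside the convergent gene M03F4.6. At act-5, replicate 1 alone had a region, 22 bp past the 3′ end (12.04, rank 21330).

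The coding sequences of act-1, act-2, act-3 and act-4 are close copies, and how reads inside them were placed is not known. The coding sequences of act-1 and act-3 were identical over 1128 bases. That of act-2 differed from them at 43 bases (96.2% identity) and that of act-4 at 66 (94.1%), while act-5 matched act-1 at 84.1% of aligned positions. The translated products of act-1 and act-4 differed at 1 residue of 376, and those of act-1 and act-5 at 29 aligned positions. The first 60 bases of the longest coding exon of act-1, with the matching bases of act-2, act-3 and act-4, show this, with capitals for bases unlike act-1.
act-1, chrV:11081311-11081370, plus strand: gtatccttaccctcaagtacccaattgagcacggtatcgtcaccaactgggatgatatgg
act-2, chrV:11077833-11077892, minus strand: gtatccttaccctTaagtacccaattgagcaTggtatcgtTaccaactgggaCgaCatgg
act-3, chrV:11072946-11073005, minus strand: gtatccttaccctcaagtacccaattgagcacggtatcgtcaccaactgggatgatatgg
act-4, chrX:4962933-4962992, plus strand: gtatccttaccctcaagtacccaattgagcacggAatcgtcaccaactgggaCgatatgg

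The upstream sequence of every actin gene was nearly free of repeats. Of the 32-base words in the 2 kb upstream, 100% occurred once in the nuclear genome at act-1, act-2, act-3 and act-4, and 98.5% at act-5. In the gene bodies the share was 12.2% at act-1, 61.8% at act-2, 58.1% at act-3, 93.2% at act-4 and 98.4% at act-5. In the longest coding exon it was 0% at act-1 and at act-3, and 50% at act-2. All words of the thresholded regions of act-1, act-2 and act-3 were unique, as in 87.3% of all thresholded regions. No list placed a summit in the coding exons of act-1 or act-3, and the part of repeated sequence in this was not tested. The weak pooled region in the act-2 coding exon had 39.3% unique words.

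**Figure D4:**
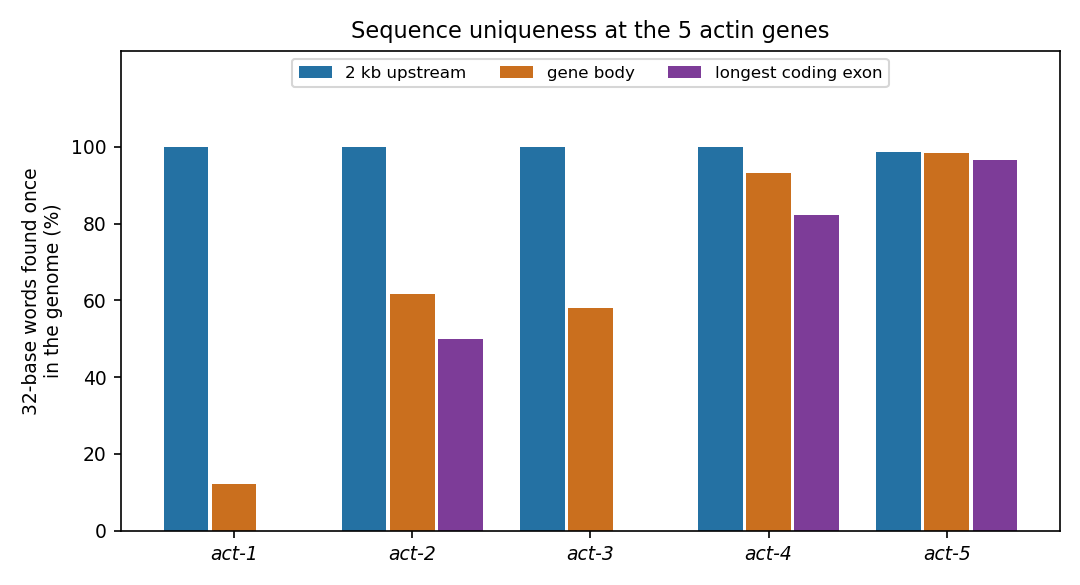
Share of 32-base words that occur once in the nuclear genome, in the 2 kb upstream, the gene body and the longest coding exon of each actin gene. Upstream shares are all between 98.5 and 100%, and the longest coding exon is at 0% for act-1 and act-3 and at 96.6% for act-5.

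In a list of actin cytoskeleton genes, 43 of 108 (39.8%) had a thresholded summit, beside 24.2% of all protein-coding genes. The list also holds thick filament, terminal web and muscle transcription factor genes, whose products need not bind actin. The windows of these genes were longer, with a median of 7058 bp beside 4027 bp over all protein-coding genes. Among genes with windows between 4270 and 11296 bp, the quartiles of the list, 28.9% had a summit. The list was made with earlier results of these data known, and no test was made of it. Its median gene had 0 thresholded summits, as did the median of all protein-coding genes.

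By role, the Arp2/3 complex, which nucleates branched filaments, and its activators had 9 of 13 genes with a thresholded summit. The share was 24.2% over all protein-coding genes and 28.9% among those with windows between the quartiles of the list. No test was made of any group, and the list was made with earlier results of these data known. The strongest were wip-1 (9.21 ± 0.0118, SD, n = 2) and wve-1 (7.24 ± 0.646), genes of the WASP and WAVE pathways, then gex-3 (2.39 ± 0.186) and the complex subunit arx-7 (1.68 ± 0.244). All 4 exceeded the act-1 and act-3 summits by more than the replicate spread. Genes of filament assembly and turnover had 7 of 19, led by twf-2, twinfilin (2.34 ± 0.479), inft-2, a formin gene (1.80 ± 0.123), unc-60, cofilin (1.65 ± 0.390), and cor-1, coronin (1.11 ± 0.0278).

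Thin filament genes had 7 of 18, led by the capping protein gene cap-2 (7.91 ± 0.0354), then the calponin family gene cpn-3 (4.93 ± 0.0348), cap-1 (1.23 ± 0.188) and lev-11, tropomyosin (1.02 ± 0.0568). Myosin and thick filament genes, a group that includes nonmuscle myosins, had 9 of 19, led by nmy-2, a nonmuscle myosin (2.51 ± 0.0710), mlc-5, a light chain (1.31 ± 0.186), unc-45, a myosin chaperone (1.29 ± 0.00596), and mlc-1, a muscle light chain (0.837 ± 0.224). The myosin heavy chain genes of muscle, unc-54, myo-1, myo-2 and myo-3, had none. The muscle transcription factor genes unc-120, hlh-1, hnd-1 and mls-1 had 0 of 4. Both counts are too small to set apart from the 24.2% of all protein-coding genes.

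Attachment and membrane link genes had 8 of 24, led by the spectrin genes spc-1 (3.81 ± 0.322) and unc-70 (2.22 ± 0.00687), ani-1, anillin (2.03 ± 0.246), and erm-1 (1.61 ± 0.321). Among genes of the microvillus and terminal web, where act-5 works, 2 of 12 had a summit, namely erm-1 and ifp-1 (0.707 ± 0.134). Actin-related protein genes had 2 of 3, arp-11 (1.75 ± 0.119) and arp-1 (0.672 ± 0.260). Tubulins, a cytoskeletal family apart from actin and outside the list, had 9 of 16, beside 24.2% of all protein-coding genes. The strongest were tba-2 (6.62 ± 0.310) and tba-1 (5.86 ± 0.349), then ben-1 (2.64 ± 0.0516) and tba-7 (2.26 ± 0.0344). Each was above the strongest actin summit in both replicates. The leads of ben-1 and tba-7 were small and, with SDs of 2 values, are not set apart from replicate noise. Among the genes named in these groups, the windows of wip-1, wve-1, unc-60, cor-1, cap-1, cap-2, nmy-2, mlc-5, ifp-1, arp-11 and tba-1 shared a summit with a neighbouring gene, such as gmps-1 for cap-2, larp-1 for wip-1 and cox-5B for tba-1. The same held for arx-2, arx-5, arx-6 and abi-1 of the Arp2/3 group and for the tubulin genes tbb-1, tbb-2 and tbg-1. The counts for these groups thus include summits that the window does not assign to a single gene.

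**Figure D5:**
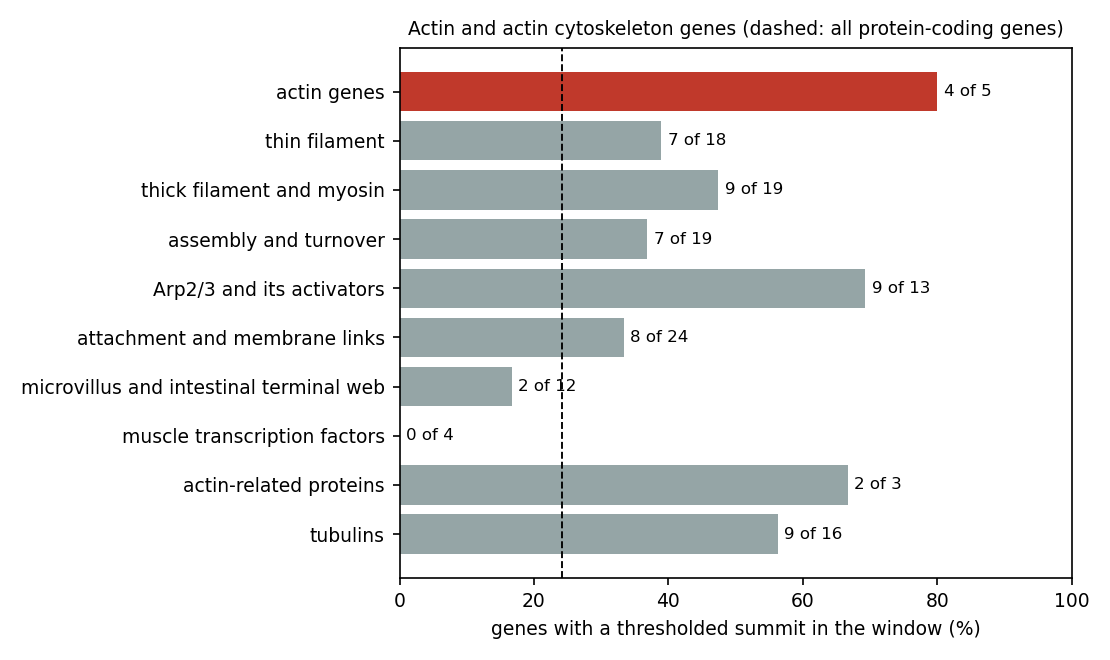
Share of genes with a thresholded summit from 2 kb upstream to the 3′ end, for the actin genes (red), each group of actin cytoskeleton genes and tubulins (grey), with the counts at the bar ends. The dashed line is the 24.2% of all protein-coding genes; the microvillus and muscle transcription factor groups lie left of it.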

How the data were processed

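Per the file index, the authors deposited narrowPeak tables of regions: relaxed lists of peaks and background, from each replicate and from the pool, and the pooled peaks that passed their irreproducible discovery rate (IDR) threshold. The sources used here do not give the aligner, the peak caller, tool versions or the IDR cutoff. The signal value (column 7 as deposited) is the caller's score, with no read counts, so the depth is unknown. Column 9 holds the authors' -log10 q-value and column 10, of another kind, the summit offset. The 5357 thresholded regions were the strongest of the 30000 pooled ones. Only ce11 lists were used, with 0 unused per-sample columns, the RefSeq WBcel235 genome and Ensembl release 115.

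Ranks are by signal within a list. A replicate value is that of the overlapping region (at least 1 bp) with the nearest summit, scaled by the median of 5312 peaks matched in each replicate (66.8 in replicate 1, 92.2 in replicate 2). No test was made, since the members, lists and motifs were chosen with earlier results of these data known. Named genes were all actin summits, up to 4 strongest members per group, genes sharing their summits and the rank neighbours. Group members whose summit lay in a neighbour's window as well were also named. The symbol tmd-1 was not found in the annotation. Window counts, matching, motif and word searches were tested on simulated data. Python 3.11.15 with pandas 2.3.3 and numpy 2.4.6 was used.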

Additional observations from a re-analysis of the deposited data

How the results depend on the processing

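The count of 4 actin genes with a thresholded summit was 2, act-2 and act-4, with the stronger part of the thresholded list, and 5 with all pooled regions. It was 3 without replicate 2 and 4 without replicate 1. Without replicate 2, act-3 dropped out because the matching replicate 1 summit, at rank 4947, lay outside its window. The 4833 protein-coding genes and 43 cytoskeleton genes became 2566 and 23 in the promoter window (500 bp before the 5′ end to 200 bp after it), 3072 and 24 with the stronger part of the list, and 9495 and 84 with all pooled regions. Without replicate 1 and without replicate 2 they were 4828 and 4888, and 44 both times. Divided by the median of all regions of each replicate, the strongest summits stood at 2.57 (act-1), 7.35 (act-2), 3.17 (act-3) and 9.51 (act-4), in the same order, since that median is lower. With either replicate alone they ranged from 0.388 to 0.694 at act-1, 1.13 to 1.97 at act-2, 0.579 to 0.775 at act-3 and 2.04 to 2.07 at act-4. Ranked by q-value, act-1 stood at 6472 and act-3 at 7027, while act-2 and act-4 were at rank 1, where 3755 regions tied. With 100 bases to either side of the summit, GAGAGA was at 2 of the 5 summits, TATAAA at 2 and the CArG box at 1. A requirement that replicate summits lie within 100 bp gave no value for act-1. In all, 18 of 53 recomputed values moved by more than the replicate SD or 1.5 times, and the cause was not tested. Part of this tally was fixed in advance. Values divided by another median move with the scale, and a single replicate always lies within the SD of 2 values. No paired analysis was possible because there was 1 group.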
